A study of Mus musculus with 8 samples.

Results

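Type I interferon-stimulated genes, the genes that cells switch on in response to interferon α and β, were followed gene by gene and as a group in splenic B cells of transgenic mice. The 38 genes were chosen by name from a list and matched by symbol to the counts matrix. All 38 were among its 24902 symbols. Of these, 34 had a value in all 8 libraries, and all 34 were among the 13173 genes tested. Mx1, Mx2, Rsad2 and Ifi44 lacked a value in at least 1 library and were not tested, since a missing value was not read as 0.

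The study asked how overexpression of PRMT5, an enzyme that dimethylates arginine residues of proteins symmetrically, affects B cells alone and together with TCL1, the oncogene of the Eµ-TCL1 mouse model of chronic lymphocytic leukemia. B cells were enriched with a magnetic pan-B isolation kit from spleens of diseased mice at ERC (early removal criteria, the point at which euthanasia was required), and their RNA was sequenced in bulk from low input. The matrix holds 4 Eµ-PRMT5 mice, 3 Eµ-PRMT5/TCL1 mice and 1 Eµ-TCL1 mouse, with 1 library each, whereas the study's methods list 4 Eµ-TCL1 mice for this experiment. Total counts ran from 3356297 in the Eµ-TCL1 mouse to 10252426 in Eµ-PRMT5 mouse 4.

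Mice labelled Eµ-hPRMT5 carried human PRMT5 behind an immunoglobulin heavy chain V promoter and the IgH-µ enhancer, which direct a transgene to B cells. Eµ-hPRMT5/hTCL1 mice came from crossing Eµ-PRMT5 with Eµ-TCL1 mice, and the Eµ-hTCL1 mouse carried the TCL1 transgene alone. The labels give the strain C57BL/6N for all 8 mice, whereas the study's methods place the TCL1 cross on C57BL/6 J. The study bred separate Eµ-PRMT5 lines from 3 founders, and both sexes were used. The title of Eµ-PRMT5 mouse 2 carries the identifier of a founder. Titles of Eµ-PRMT5 mice 3 and 4 carry numbers that the study also uses for mice in its histology. Under the number of mouse 3 it describes anaplastic large lymphocytes with histiocytes, and under that of mouse 4 sheets of small lymphocytes. It does not state that these are the same animals, and the part of histology in the results was not tested. The study describes its double transgenic mice as a cross from 1 of the lines, reports survival of crosses from the other 2 as well, and does not give a line for each library. Ages were not given for these libraries, no untreated interferon control was analysed here, and wild-type mice were not analysed here. The Eµ-TCL1 genotype is represented by 1 mouse: each test against it compares that mouse with a group and assumes that it varied like the replicated groups. Prmt5 in the matrix is the mouse symbol, and how far human transgene RNA was counted under it is not known. Prmt5 was at 128, 171, 62.7 and 235 CPM (TMM-normalized counts scaled to library size) in Eµ-PRMT5 mice 1 to 4, at 110, 115 and 126 CPM in Eµ-PRMT5/TCL1 mice 1 to 3 and at 79.5 CPM in the Eµ-TCL1 mouse.

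As background, type I interferon binds a receptor of IFNAR1 and IFNAR2 on nearly every nucleated cell, and the kinases JAK1 and TYK2 then activate STAT proteins. STAT2 and IRF9 act in the complex ISGF3, which binds interferon-stimulated response elements in the promoters of target genes. The products detect foreign RNA and DNA, degrade viral RNA, block translation or viral budding, and feed back on the pathway. B cells respond to interferon and, when they sense nucleic acids, can add to its production.

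Some libraries stood apart in their content. A value was present for 16379 symbols in Eµ-PRMT5 mouse 1 but for 20411 to 21475 in the other 7 libraries. All 10 B cell markers had a value in every library, and their summed level was 6008, 4241, 7210 and 2101 CPM in Eµ-PRMT5 mice 1 to 4, 3724, 5445 and 8995 CPM in Eµ-PRMT5/TCL1 mice 1 to 3 and 4994 CPM in the Eµ-TCL1 mouse. The B cell sum was thus lowest in Eµ-PRMT5 mouse 4.

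Markers of other cells were present as well, and each sum takes in every listed gene with a value in that library, so libraries with missing values sum over fewer genes. Of 10 macrophage markers, 6 had a value in all libraries. The list summed to 1128, 1103, 1330 and 3787 CPM in Eµ-PRMT5 mice 1 to 4. It summed to 7027, 2643 and 1016 CPM in Eµ-PRMT5/TCL1 mice 1 to 3 and to 1089 CPM in the Eµ-TCL1 mouse. Lyz2, which is not specific to macrophages, was the most abundant in each, so the sum does not measure macrophages alone. C1qa had no value in Eµ-PRMT5 mice 1 and 2, and C1qb, C1qc and Cd5l had none in mouse 1. For neutrophil markers, with 15 of 16 complete, the sums were 2805, 2311, 447 and 5559 CPM, then 9347, 5208 and 688 CPM, then 640 CPM, with Ngp or Mpo the most abundant. Ly6g was at 0 counts in Eµ-PRMT5 mouse 1 and Cebpe in mouse 3, where Cxcr2 had no value. Both lists were highest in Eµ-PRMT5/TCL1 mouse 1, and Eµ-PRMT5 mouse 4 had the next highest sum.

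Erythroid markers, 6 of 9 complete, summed to 99.4, 24.4, 63.1 and 675 CPM in Eµ-PRMT5 mice 1 to 4, to 358, 100.1 and 90.2 CPM in Eµ-PRMT5/TCL1 mice 1 to 3 and to 34.9 CPM in the Eµ-TCL1 mouse. Hba-a1 led this list except in Eµ-PRMT5 mouse 4, where Car1 did. Values were present for 7, 8, 7 and 9 of the 9 genes in Eµ-PRMT5 mice 1 to 4, for all 9 in Eµ-PRMT5/TCL1 and for 8 in the Eµ-TCL1 mouse, so these sums do not cover the same genes. Klf1 was at 0 counts in Eµ-PRMT5 mouse 1. T cell markers, 6 of 10 complete and led by Cd3g, Cd8b1 or Cd28, summed to 100.5, 94.2, 448 and 119 CPM, then 117, 78.8 and 76.7 CPM, then 138 CPM. NK cell markers, 3 of 7 complete and led by Nkg7, Gzma, Prf1 or Ncr1, summed to 80.0, 66.8, 394 and 45.3 CPM, then 73.9, 59.2 and 25.5 CPM, then 37.6 CPM. Eµ-PRMT5 mouse 3 was thus highest for T and NK cell markers, and Eµ-PRMT5 mouse 4 for erythroid ones. Among these markers Cd4 and Klrb1c lacked a value in Eµ-PRMT5 mouse 1, Bcl11b, Gzma and Klre1 in Eµ-PRMT5 mouse 4, and Cd8a, Thy1 and Eomes in Eµ-PRMT5/TCL1 mouse 3; Thy1 also lacked one in mouse 1 and Klre1 in mouse 2 of that group, and Gzma in the Eµ-TCL1 mouse.

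Plasmacytoid dendritic cells are the best known producers of type I interferon. Their markers, 3 of 6 complete and led by Pacsin1, Siglech or Smim5, summed to 62.3, 142, 62.7 and 123 CPM in Eµ-PRMT5 mice 1 to 4, to 71.6, 75.9 and 43.0 CPM in Eµ-PRMT5/TCL1 mice 1 to 3 and to 48.4 CPM in the Eµ-TCL1 mouse. Siglech and Cox6a2 had no value in Eµ-PRMT5 mouse 1, and Klk1 had none in Eµ-PRMT5 mice 1 to 3 and Eµ-PRMT5/TCL1 mouse 1. Conventional dendritic cell markers, 2 of 6 complete and led by Zbtb46 or Flt3, summed to 66.0, 109, 81.6 and 26.6 CPM, then 80.3, 44.0 and 47.6 CPM, then 78.7 CPM. Clec9a had a value only in Eµ-PRMT5 mice 2 and 3 and Eµ-PRMT5/TCL1 mouse 1, while Itgax lacked one in the Eµ-TCL1 mouse, Xcr1 in Eµ-PRMT5 mouse 1 and Cd209a in Eµ-PRMT5 mouse 4. Plasma cell markers, all 6 complete and led by Jchain, Xbp1 or Mzb1, summed to 6033, 2668, 2079 and 1232 CPM, then 867, 771 and 3475 CPM, then 2478 CPM. Some of these, such as Irf4 and Xbp1, are also expressed by other B cells. Most interferon-stimulated genes can be expressed by any of these cells, so fewer cells of a type and less RNA per cell cannot be told apart in bulk RNA. The part of the marker lists in the results that follow was not tested.

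**Figure D1:**
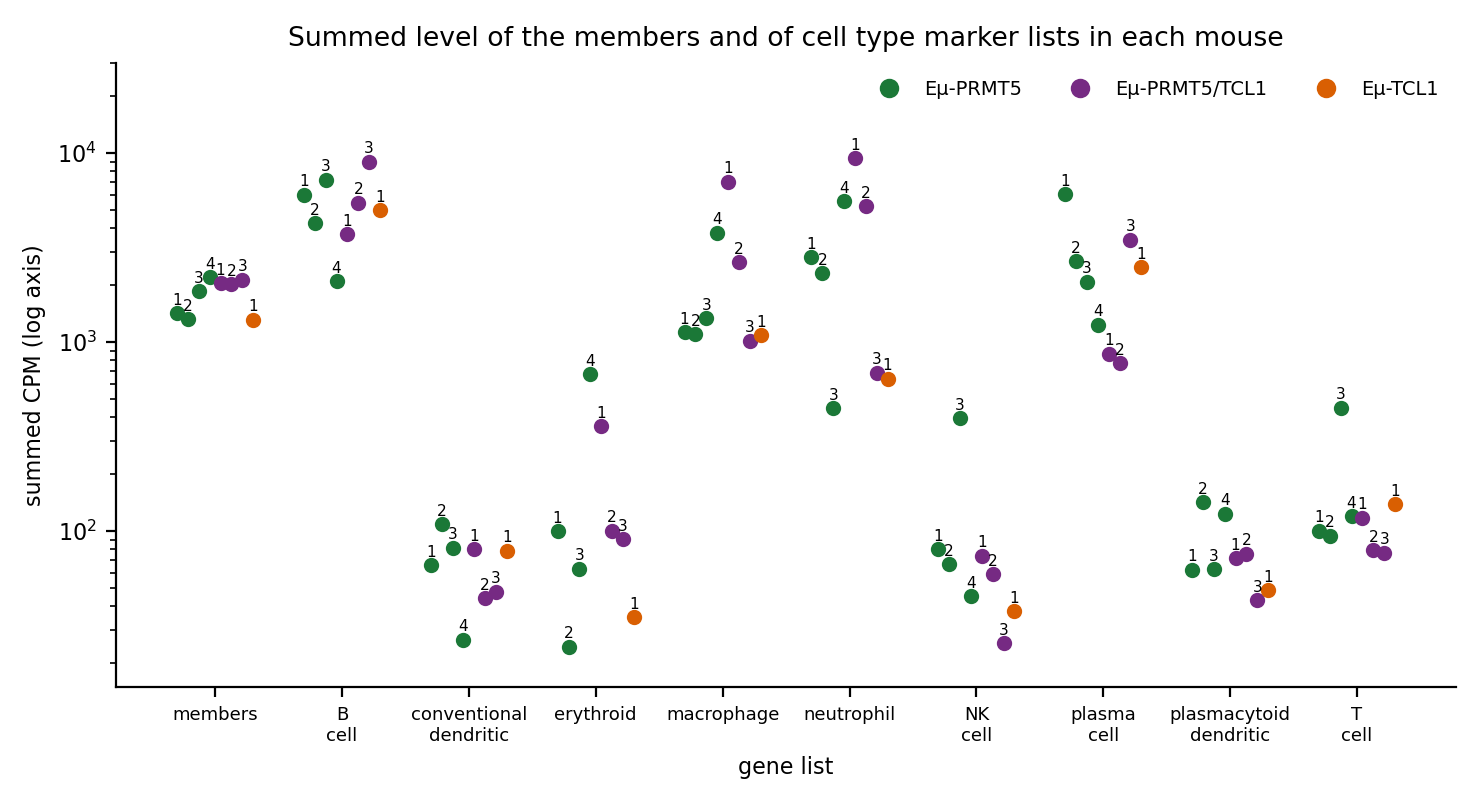
Summed CPM of the members and of the genes of each cell type marker list in each of the 8 mice, on a log axis, coloured by genotype. The B cell sum is lowest in Eµ-PRMT5 mouse 4 (2101 CPM), and the macrophage and neutrophil sums are highest in Eµ-PRMT5/TCL1 mouse 1 (7027 and 9347 CPM).

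The promoters of the members were read because these genes are defined by a shared response. RefSeq promoters of build GRCm38.p6, 250 bases before to 50 after each start, were matched to 28 of the 38 members. Those not matched were Dhx58, Zbp1, Oas2, Mx1, Mx2, Usp18, Parp9, Parp14, Rtp4 and Ifi27l2a. The motif GAAANNGAAA, the core of an interferon-stimulated response element, was searched on both strands with overlapping matches merged. It was present for 13 of the 28 members (46.4%), against 1079 of all 27025 symbols with a promoter of the same length (3.99%). The 13 were Stat2, Ifih1, Ddx58, Eif2ak2, Oas1a, Oas1g, Oas3, Ifit1, Ifit3, Isg15, Rsad2, Bst2 and Trim30a. A match is a description of letters and not a measured binding site.

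The windows shown here belong to members described in the results, and were chosen to show repeated or shared motifs. Each is written 5′ to 3′ on the gene's own strand, with the motif and any merged overlapping match in capitals and 10 flanking bases in lower case. Capitals that start with T hold the same motif on the opposite strand. The windows are Isg15 at chr4:156200865-156200906 (minus strand), Oas1a at chr5:120907520-120907555 (minus), Oas1g at chr5:120887606-120887641 (minus), Ifit1 at chr19:34640775-34640804 and chr19:34640794-34640823 (plus), Ifit3 at chr19:34583363-34583392 and chr19:34583397-34583426 (plus), Bst2 at chr8:71537577-71537612 (minus), Rsad2 at chr12:26456553-26456582 (minus) and Stat2 at chr10:128270266-128270295 (plus).
Isg15: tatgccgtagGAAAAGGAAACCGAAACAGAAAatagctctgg
Oas1a: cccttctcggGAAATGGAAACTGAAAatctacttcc
Oas1g: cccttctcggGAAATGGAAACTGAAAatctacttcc
Ifit1, distal: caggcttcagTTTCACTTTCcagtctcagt
Ifit1, proximal: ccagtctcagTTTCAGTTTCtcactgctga
Ifit3, distal: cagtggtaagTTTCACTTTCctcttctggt
Ifit3, proximal: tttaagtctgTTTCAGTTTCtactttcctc
Bst2: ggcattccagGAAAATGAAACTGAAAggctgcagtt
Rsad2: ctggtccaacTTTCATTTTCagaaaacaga
Stat2: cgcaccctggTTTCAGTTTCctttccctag

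Isg15 held 3 overlapping matches, whose capitals ran from position -78 to -57 relative to its start. The windows of Oas1a and Oas1g, neighbouring copies of a duplicated gene, were identical letter for letter, and their capitals lay at -20 to -5 and at -18 to -3. Ifit1 and Ifit3 each held 2 separate matches, at -104 to -95 and -85 to -76 for Ifit1 and at -156 to -147 and -122 to -113 for Ifit3.

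As a group, the members separated the mice more than the genotypes. The mean log2 CPM over the 34 complete members, a level with a prior count of 2, was 4.32, 4.26, 5.14 and 5.60 for Eµ-PRMT5 mice 1 to 4, 5.40, 5.19 and 5.30 for Eµ-PRMT5/TCL1 mice 1 to 3, with 4.35 for the Eµ-TCL1 mouse. Eµ-PRMT5 mice 1 and 2 lay beside the Eµ-TCL1 mouse, mouse 3 lay just under the Eµ-PRMT5/TCL1 mice, and mouse 4 lay above all others. The group means were 4.83 ± 0.65 (SD, n = 4) for Eµ-PRMT5 and 5.29 ± 0.11 (SD, n = 3) for Eµ-PRMT5/TCL1, so the groups overlapped. Their difference on this log2 scale was 0.46, less than the SD within Eµ-PRMT5. It was 0.27 without Eµ-PRMT5 mouse 2, 0.29 without mouse 1 and 0.72 without mouse 4. Eµ-PRMT5 exceeded the Eµ-TCL1 mouse by 0.48, or by 0.22 without Eµ-PRMT5 mouse 4 and by 0.23 with scaling by library size only, and Eµ-PRMT5/TCL1 exceeded it by 0.94. These means are descriptions and were given no test.

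Counting genes described the same division from the same values, and is not separate evidence for it. For each mouse, members above their own mean over the 8 mice were counted: 8, 6, 24 and 27 of 34 for Eµ-PRMT5 (mouse 1 to 4), 26, 24 and 29 for Eµ-PRMT5/TCL1 (mouse 1 to 3) and 7 for the lone Eµ-TCL1 mouse. Among all genes tested the share above the own mean lay between 46.7% and 55.5% in each mouse, while among members it ran from 17.6% in Eµ-PRMT5 mouse 2 to 85.3% in Eµ-PRMT5/TCL1 mouse 3. Eµ-PRMT5 mouse 4 was the highest of the 8 mice for 13 members (38.2%, against 20.1% of all genes tested). The lowest was Eµ-PRMT5 mouse 1 for 11 members (32.4%, against 20.4%), Eµ-PRMT5 mouse 2 for 9 (26.5%, against 9.23%) and the Eµ-TCL1 mouse for 8 (23.5%, against 14.2%). No member was highest in the Eµ-TCL1 mouse, where 21.3% of all genes tested were.

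Spread between mice was larger in Eµ-PRMT5. The median SD of a member's log2 CPM was 0.85 over the 4 Eµ-PRMT5 mice and 0.50 over the 3 Eµ-PRMT5/TCL1 mice, against 0.66 and 0.36 for all genes tested. The 10525 genes tested whose mean level lay within the members' range had medians of 0.63 and 0.35.

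**Figure D2:**
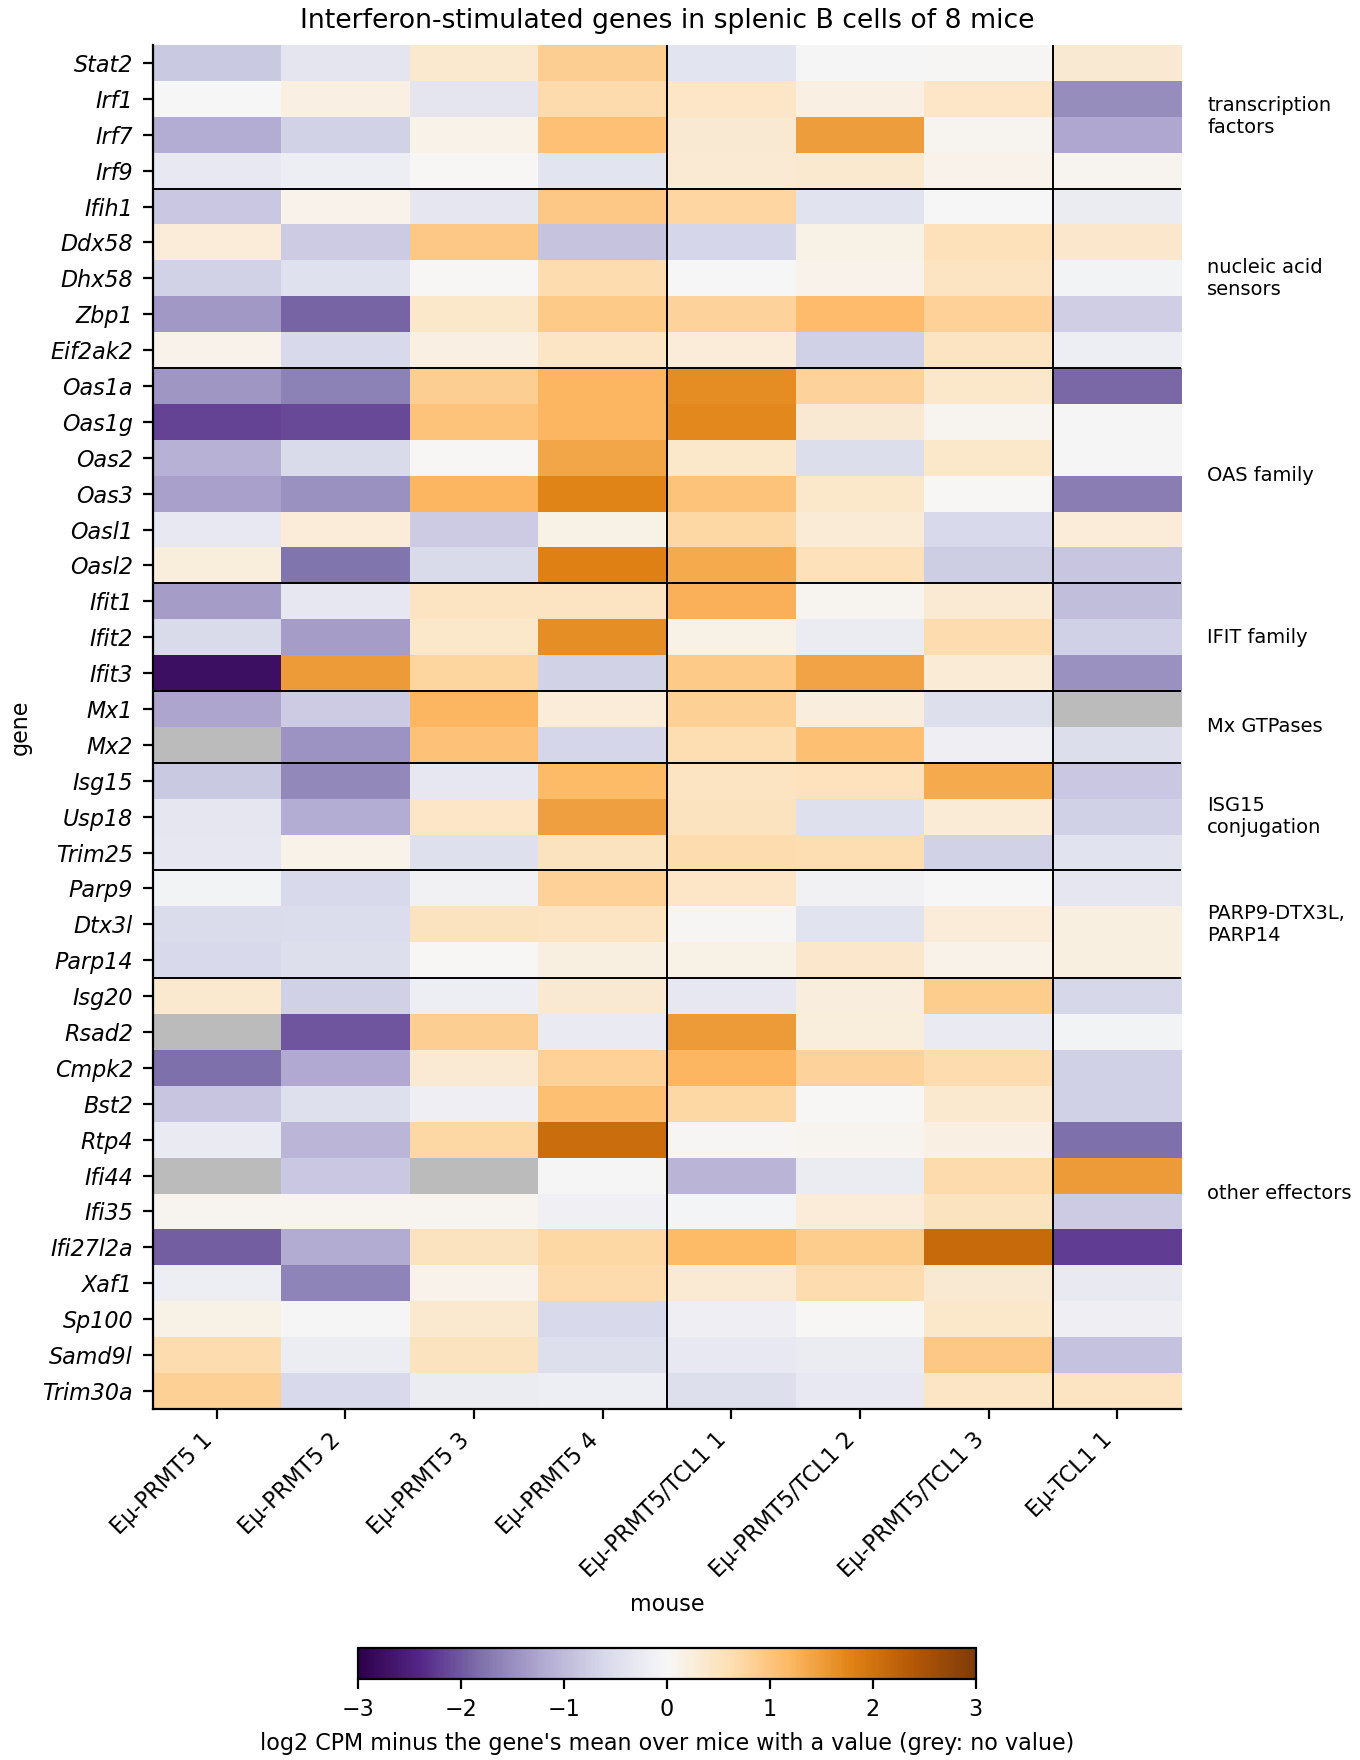
Log2 CPM of each of the 38 members (grouped by role) in each of the 8 mice, minus the gene's mean over the mice with a value, with grey for no value. Eµ-PRMT5 mice 1 and 2 and the Eµ-TCL1 mouse are mostly below the gene means (8, 6 and 7 of 34 complete members above), and the other 5 mice mostly above.

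**Figure D3:**
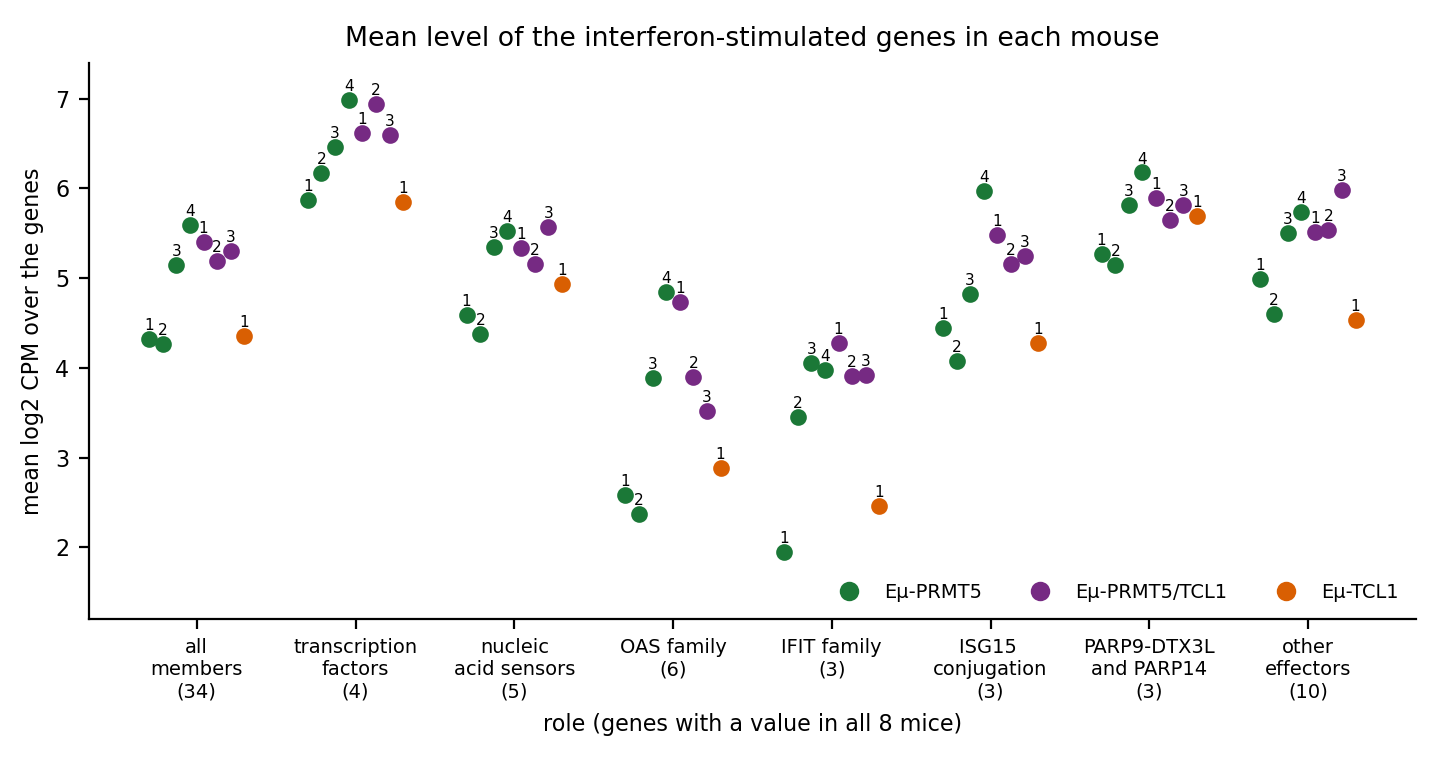
Mean log2 CPM over the complete members of each role in each mouse, coloured by genotype and numbered by mouse, with the number of genes under each role. Over all 34 members the points run from 4.26 in Eµ-PRMT5 mouse 2 to 5.60 in Eµ-PRMT5 mouse 4.

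Levels can be compared between genes only per length. Per kilobase of exon, averaged over the 8 mice, Ifi27l2a stood highest at 118 CPM per kb, followed by Ifi35 at 45.9, Irf1 at 42.5 and Bst2 at 37.3 CPM per kb. Ifi27l2a was the highest member in 5 of the 8 mice. In Eµ-PRMT5 mice 1 and 2 and in the Eµ-TCL1 mouse Ifi35 was highest instead (46.5, 47.0 and 25.99 CPM per kb, where Ifi27l2a was at 18.8, 32.8 and 15.8). The lowest complete members on average were Ifih1 at 1.89, Oas1g at 2.43 and Oas3 at 2.90 CPM per kb, and the lowest member also differed between mice. On the gene level, without length, Sp100, Trim25 and Irf1 had the largest mean log2 CPM (7.65, 7.34 and 7.29).

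Transcription factors come first among the roles. Stat2, a subunit of ISGF3, was at 41.6, 56.7, 93.9 and 132 CPM in Eµ-PRMT5 mice 1 to 4, at 56.1, 71.2 and 75.3 CPM in Eµ-PRMT5/TCL1 mice 1 to 3 and at 92.5 CPM in the Eµ-TCL1 mouse. All 3 Eµ-PRMT5/TCL1 mice lay inside the Eµ-PRMT5 range, and all 3 were below the Eµ-TCL1 mouse. Irf9, the DNA-binding subunit of ISGF3, was at 95.6, 103, 116 and 88.4 CPM in Eµ-PRMT5, at 144, 151 and 126 CPM in Eµ-PRMT5/TCL1 and at 122 CPM in the Eµ-TCL1 mouse. Every Eµ-PRMT5/TCL1 mouse was above every other mouse, and every Eµ-PRMT5 mouse was below the Eµ-TCL1 mouse. Irf9 was among the 3 least variable members, and its log2 fold change of Eµ-PRMT5/TCL1 over Eµ-PRMT5 was 0.47 (SE 0.29, edgeR unadjusted p = 0.129, adjusted p = 1). The neighbouring gene Rnf31 overlaps it on the same strand, so reads in the overlap could be counted to either.

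Irf7, the factor that amplifies interferon α production, was at 18.3, 25.5, 45.1 and 86.8 CPM in Eµ-PRMT5, at 53.0, 117 and 43.3 CPM in Eµ-PRMT5/TCL1 and at 17.6 CPM in the Eµ-TCL1 mouse. Eµ-PRMT5/TCL1 mouse 2 was highest and the Eµ-TCL1 mouse lowest, and the replicated groups overlapped. The log2 fold change was 0.69 (SE 0.54) for Eµ-PRMT5/TCL1 over Eµ-PRMT5, but leaving out Eµ-PRMT5 mouse 4 or mouse 1 gave 1.27 or 0.44, and leaving out Eµ-PRMT5/TCL1 mouse 2 gave 0.13. Irf1, a factor induced by both interferon types (chr11:53770014-53778374, plus strand, GRCm38), was at 155, 177, 121 and 248 CPM in Eµ-PRMT5, at 211, 176 and 211 CPM in Eµ-PRMT5/TCL1 and at 54.3 CPM in the Eµ-TCL1 mouse. All 7 mice carrying PRMT5 were above the Eµ-TCL1 mouse, and the replicated groups overlapped. The log2 fold change of Irf1 was 1.69 (SE 0.55, unadjusted p = 0.0101, adjusted p = 0.709, edgeR) for Eµ-PRMT5 over the Eµ-TCL1 mouse and 1.87 (SE 0.57, unadjusted p = 0.00652, adjusted p = 0.778, edgeR) for Eµ-PRMT5/TCL1 over it. Irf1 and Irf7 overlap exons of Gm17334 and Phrf1 on the opposite strand, and use of strand in the counting is not known.

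Nucleic acid sensors were 5 members. Zbp1, a sensor of left-handed nucleic acid that can start necroptosis, was at 19.7, 13.6, 70.2 and 99.3 CPM in Eµ-PRMT5, at 90.0, 115 and 92.05 CPM in Eµ-PRMT5/TCL1 and at 31.4 CPM in the Eµ-TCL1 mouse. Eµ-PRMT5 mice 1 and 2 were lowest, the 3 Eµ-PRMT5/TCL1 mice lay close together, and mouse 4 of Eµ-PRMT5 lay among them. Its log2 fold change of Eµ-PRMT5/TCL1 over Eµ-PRMT5 was 0.97 (SE 0.58, unadjusted p = 0.120, adjusted p = 1, edgeR), and without Eµ-PRMT5 mouse 4 it was 1.53. Ifih1 (MDA5) ran from 7.92 to 27.9 CPM, Ddx58 (RIG-I) from 52.8 to 189 CPM and Dhx58 (LGP2) from 16.0 to 40.8 CPM over the 8 mice. Ddx58 did not follow the group pattern: it was lowest in Eµ-PRMT5 mouse 4 and highest in mouse 3. Eif2ak2, the kinase PKR that halts translation on sensing double-stranded RNA, ran from 14.4 to 33.5 CPM. The log2 fold changes of these 4 between Eµ-PRMT5/TCL1 and Eµ-PRMT5 lay between 0.02 and 0.23.

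The OAS family makes 2-5A, the messenger that activates RNase L, in its catalytic members. Oas1a was at 4.26, 3.64, 22.1 and 28.1 CPM in Eµ-PRMT5, at 38.9, 20.7 and 16.1 CPM in Eµ-PRMT5/TCL1 and at 2.97 CPM (11 counts) in the Eµ-TCL1 mouse. Eµ-PRMT5 mice 1 and 2 were near the Eµ-TCL1 mouse, and the other 5 mice were higher than these 3. Its log2 fold change of Eµ-PRMT5/TCL1 over the Eµ-TCL1 mouse was 3.08 (SE 1.34, unadjusted p = 0.0409, adjusted p = 0.778, edgeR). Over Eµ-PRMT5 it was 0.79 (SE 0.70), with 0.34 without Eµ-PRMT5/TCL1 mouse 1, 0.47 and 0.50 without Eµ-PRMT5 mice 2 and 1, and 1.34 without Eµ-PRMT5 mouse 4. Oas1g was at 0.609, 0.633, 8.21 and 9.45 CPM in Eµ-PRMT5, at 13.6, 5.004 and 4.15 CPM in Eµ-PRMT5/TCL1 and at 3.79 CPM in the Eµ-TCL1 mouse. It was lowest in Eµ-PRMT5 mice 1 and 2, with 3 and 4 counts, and its Eµ-PRMT5/TCL1 values lay inside the Eµ-PRMT5 range except for mouse 1. Of the 75-base words of Oas1a transcripts 47.6% also occurred in Oas1g, and of those of Oas1g 36.9% occurred in Oas1a, so the split of reads between them is uncertain.

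The mean log2 CPM over the 6 OAS members was 2.58, 2.37, 3.88 and 4.85 in Eµ-PRMT5, 4.73, 3.90 and 3.51 in Eµ-PRMT5/TCL1 and 2.88 in the Eµ-TCL1 mouse. Eµ-PRMT5 thus held both the lowest and the highest mice. Oas2 ran from 6.29 to 37.5 CPM, Oas3 from 4.33 to 50.5 CPM and Oasl2 from 3.96 to 51.3 CPM, each highest in Eµ-PRMT5 mouse 4. Oasl1, which in the mouse restrains translation of Irf7, varied less, from 10.5 to 30.003 CPM.

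IFIT proteins bind foreign RNA at its 5′ end and block its translation. Ifit3 was at 1.01, 25.8, 15.3 and 5.30 CPM in Eµ-PRMT5, at 17.1, 24.02 and 10.9 CPM in Eµ-PRMT5/TCL1 and at 2.97 CPM in the Eµ-TCL1 mouse. Its order of mice differed from the other members: Eµ-PRMT5 mouse 2, low for most, was highest, and the groups overlapped. Because 41.1% of its 75-base words also occurred in the near copy Ifit3b, its level is uncertain. Ifit1 ran from 4.67 CPM in Eµ-PRMT5 mouse 1 to 30.2 CPM in Eµ-PRMT5/TCL1 mouse 1, and Ifit2 from 4.59 CPM in Eµ-PRMT5 mouse 2 to 39.0 CPM in Eµ-PRMT5 mouse 4. The mean log2 CPM of the 3 genes was 1.95, 3.45, 4.05 and 3.98 in Eµ-PRMT5, 4.28, 3.91 and 3.92 in Eµ-PRMT5/TCL1 and 2.46 in the Eµ-TCL1 mouse.

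Mx GTPases, where a functional protein is made, trap viral ribonucleoproteins. Only their RNA was measured here, and whether these mice make functional Mx proteins was not read. Mx1 was at 4.06, 5.70, 23.7 and 12.1 CPM in Eµ-PRMT5 and at 18.0, 11.9 and 7.07 CPM in Eµ-PRMT5/TCL1, with no value in the Eµ-TCL1 mouse. Mx2 had no value in Eµ-PRMT5 mouse 1 and was at 1.11, 7.75 and 2.19 CPM in mice 2 to 4, at 5.74, 8.01 and 3.23 CPM in Eµ-PRMT5/TCL1 and at 2.43 CPM in the Eµ-TCL1 mouse. Both were highest, within Eµ-PRMT5, in mouse 3, and the replicated groups overlapped.

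ISG15 is a ubiquitin-like protein that USP18 removes from its targets, and TRIM25 is a ubiquitin ligase of the RIG-I pathway. Isg15 ran from 3.01 CPM in Eµ-PRMT5 mouse 2 to 24.6 CPM in Eµ-PRMT5/TCL1 mouse 3, and Usp18 from 7.76 CPM in Eµ-PRMT5 mouse 2 to 49.3 CPM in Eµ-PRMT5 mouse 4. Trim25, an abundant member, was at 129, 177, 118 and 227 CPM in Eµ-PRMT5, at 254, 246 and 99.1 CPM in Eµ-PRMT5/TCL1 and at 121 CPM in the Eµ-TCL1 mouse. Eµ-PRMT5/TCL1 held both its highest mice and its lowest mouse.

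PARP9 and DTX3L form a complex of a mono-ADP-ribosyltransferase family member and a ubiquitin ligase, and PARP14 is an active mono-ADP-ribosyltransferase. Parp14 was at 37.1, 40.7, 57.0 and 65.0 CPM in Eµ-PRMT5, at 63.3, 74.5 and 62.2 CPM in Eµ-PRMT5/TCL1 and at 64.9 CPM in the Eµ-TCL1 mouse. Only Eµ-PRMT5 mice 1 to 3 were below the rest, and the gene was among the 3 least variable members. Parp9 ran from 36.7 to 97.7 CPM and Dtx3l from 28.8 to 60.0 CPM. Exons of these last 2 genes overlap on opposite strands at their shared start on chromosome 16, which makes their split uncertain without strand.

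Among the other effectors, Ifi27l2a, a small hydrophobic protein of the ISG12 family (chr12:103442167-103443680, minus strand, GRCm38), separated the groups most. It was at 8.73, 15.2, 49.9 and 57.9 CPM in Eµ-PRMT5, at 78.2, 64.5 and 155 CPM in Eµ-PRMT5/TCL1 and at 7.30 CPM (27 counts) in the Eµ-TCL1 mouse. Every Eµ-PRMT5/TCL1 mouse was above every Eµ-PRMT5 mouse, and all 7 were above the Eµ-TCL1 mouse. The log2 fold change of Eµ-PRMT5/TCL1 over Eµ-PRMT5 was 1.59 (SE 0.59, 95% interval 0.30 to 2.88, unadjusted p = 0.0199, adjusted p = 1, edgeR). Against the Eµ-TCL1 mouse it was 2.17 for Eµ-PRMT5 (SE 1.05, unadjusted p = 0.0610, adjusted p = 0.709, edgeR) and 3.76 for Eµ-PRMT5/TCL1 (SE 1.17, unadjusted p = 0.00732, adjusted p = 0.778, edgeR). DESeq2 gave 3.85 (SE 0.96, adjusted p = 0.0355) for the last of these, the only member that this tool called in any comparison.

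Cmpk2, a mitochondrial nucleotide kinase, was at 7.10, 11.1, 32.6 and 45.7 CPM in Eµ-PRMT5, at 60.8, 44.9 and 41.2 CPM in Eµ-PRMT5/TCL1 and at 15.7 CPM in the Eµ-TCL1 mouse. Its 3 Eµ-PRMT5/TCL1 values were above Eµ-PRMT5 mice 1 to 3, mouse 1 of them was also above Eµ-PRMT5 mouse 4, and mice 2 and 3 were just under it. It had a log2 fold change of 1.02 (SE 0.57, unadjusted p = 0.0970, adjusted p = 1, edgeR), or 1.54 without Eµ-PRMT5 mouse 4. Rsad2 (viperin), which makes a chain-terminating nucleotide and lies next to Cmpk2 on chromosome 12, had no value in Eµ-PRMT5 mouse 1 and was at 2.85, 22.8 and 10.5 CPM in mice 2 to 4, at 36.2, 15.01 and 10.4 CPM in Eµ-PRMT5/TCL1 and at 11.9 CPM in the Eµ-TCL1 mouse. Both neighbours were highest in Eµ-PRMT5/TCL1 mouse 1, and the ranges of the replicated groups overlapped for both.

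Rtp4, a chaperone of G protein-coupled receptors, was at 7.10, 3.96, 14.1 and 36.7 CPM in Eµ-PRMT5, at 8.69, 9.01 and 9.53 CPM in Eµ-PRMT5/TCL1 and at 2.16 CPM (8 counts) in the Eµ-TCL1 mouse. Eµ-PRMT5 mouse 4 was far above the others, and the 3 Eµ-PRMT5/TCL1 mice were nearly equal. Its log2 fold change of Eµ-PRMT5 over the Eµ-TCL1 mouse was 2.83 (SE 1.27, unadjusted p = 0.0456, adjusted p = 0.709, edgeR), and 1.94 without Eµ-PRMT5 mouse 4. In Eµ-PRMT5/TCL1 against Eµ-PRMT5 its log2 fold change was -0.77 (SE 0.69), the most negative of the members, but 0.12 without Eµ-PRMT5 mouse 4.

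Sp100, a nuclear body protein and the member with the largest mean log2 CPM, was at 221, 196, 256 and 133 CPM in Eµ-PRMT5, at 179, 200.2 and 267 CPM in Eµ-PRMT5/TCL1 and at 181 CPM in the Eµ-TCL1 mouse. It varied little, and Eµ-PRMT5 mouse 4, high for most members, was its lowest mouse. Ifi44 had no value in Eµ-PRMT5 mice 1 and 3, and was at 2.37 and 4.38 CPM in mice 2 and 4, at 1.97, 3.86 and 7.38 CPM in Eµ-PRMT5/TCL1 and at 13.5 CPM in the Eµ-TCL1 mouse. Unlike every complete member, Ifi44 was highest in the Eµ-TCL1 mouse. Bst2 (tetherin), which holds budding virus at the cell surface, ran from 16.6 to 65.3 CPM, Xaf1 from 5.54 to 28.2 CPM, Isg20, an exonuclease, from 25.96 to 79.0 CPM, Samd9l from 30.3 to 109 CPM, Trim30a from 33.7 to 91.3 CPM and Ifi35 from 44.9 to 110 CPM. Ifi35 and Samd9l were lowest in the Eµ-TCL1 mouse, whereas Trim30a was higher there than in any Eµ-PRMT5/TCL1 mouse.

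**Figure D4:**
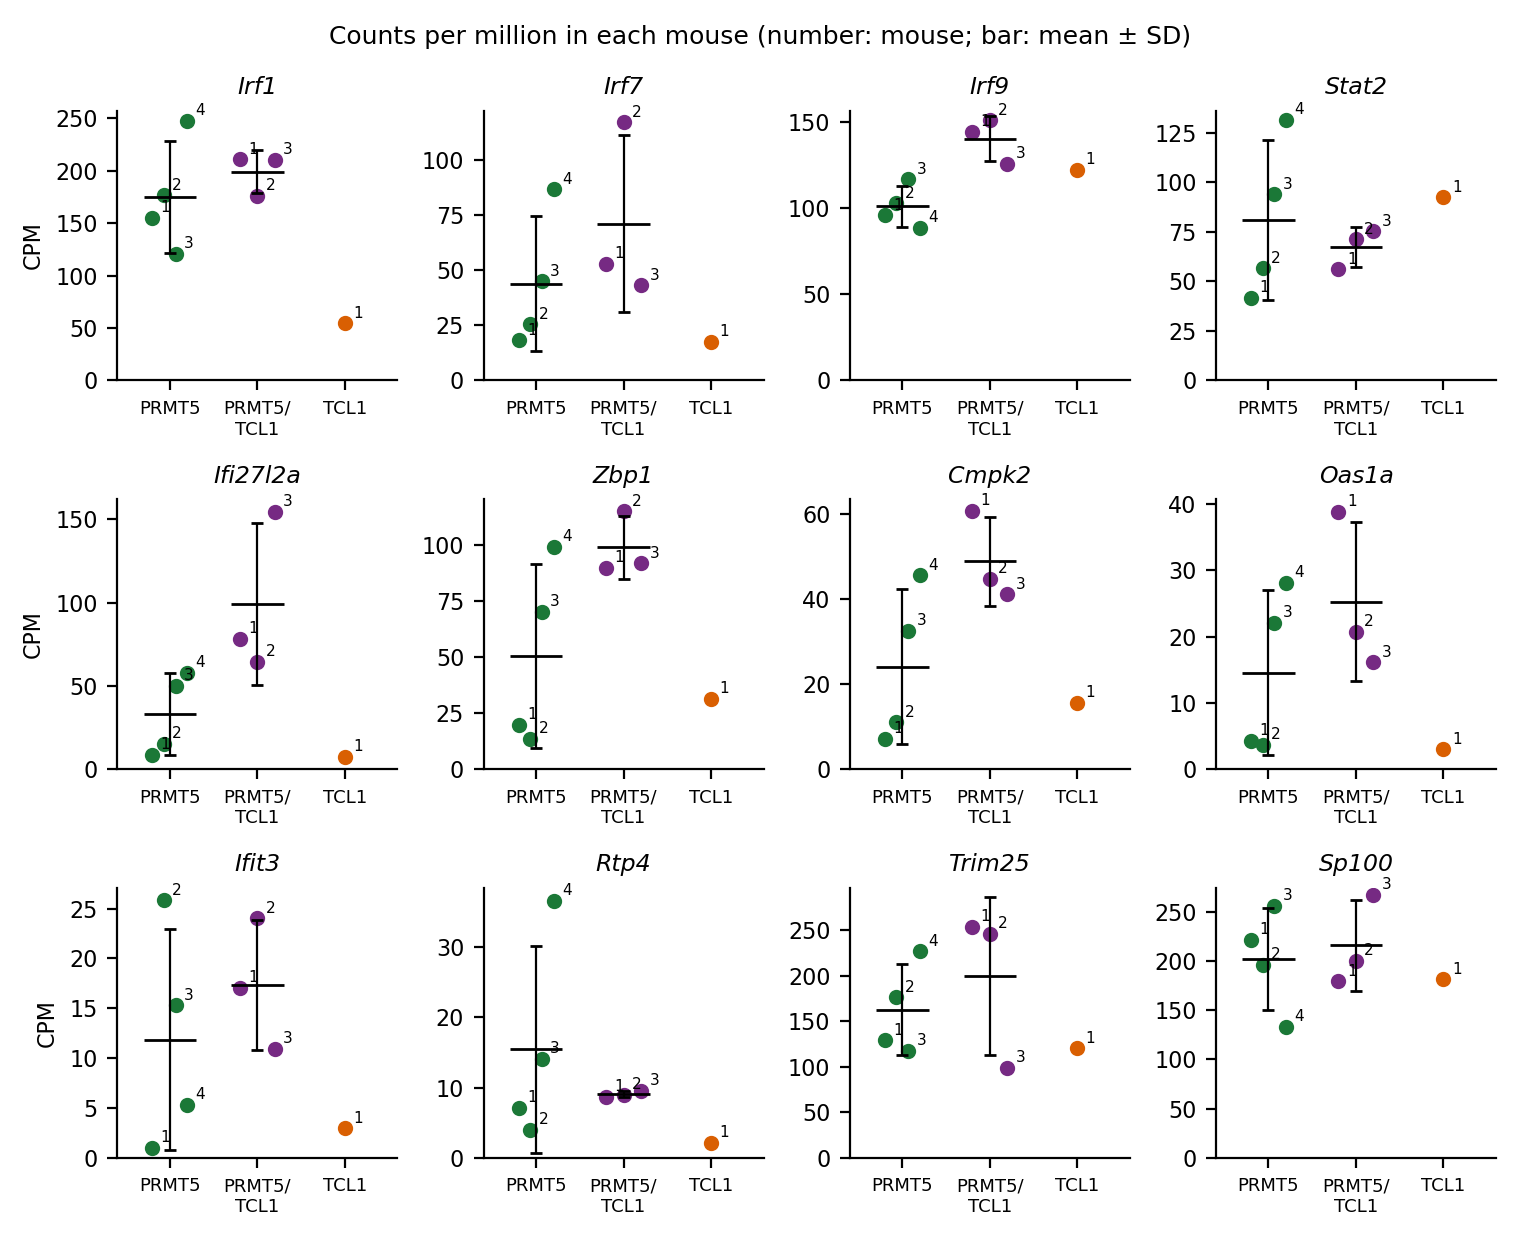
CPM of 12 members in each mouse by genotype, with numbered points for single mice and the mean ± SD of each replicated group. Ifi27l2a and Irf9 are the 2 members whose Eµ-PRMT5/TCL1 values all lie above the Eµ-PRMT5 values.

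The first comparison asked what TCL1 together with PRMT5 adds to PRMT5 alone. Of the 34 members, 26 had a positive log2 fold change in Eµ-PRMT5/TCL1 over Eµ-PRMT5 (76.5%, against 40.6% of all genes tested), with a median of 0.24 (all genes tested -0.09). That median was 0.50 without Eµ-PRMT5 mouse 4, 0.14 when Eµ-PRMT5 mouse 2 was left out and 0.15 when Eµ-PRMT5/TCL1 mouse 3 was. Of the markers tested, 11 of 15 neutrophil, 3 of 6 erythroid and 4 of 6 macrophage genes were also higher. Their median log2 fold changes were 0.30, 0.08 and 0.78. For T cell, NK cell and plasma cell markers 0 of 6, 0 of 3 and 0 of 6 were higher. The part of these markers was not tested. edgeR called 0 members higher and 0 lower at an adjusted p under 0.05, as it called 0 of all 13173 genes tested (0%). DESeq2 also called 0 members, and it called 4 of all genes (3 higher, 1 lower). At an unadjusted p under 0.05, 1 member was higher, Ifi27l2a, and 0 were lower, where 0.957% of all genes tested were higher and 1.21% lower; DESeq2 likewise gave 1 member. Groups that did not overlap were seen for 2 members with Eµ-PRMT5/TCL1 higher, Irf9 and Ifi27l2a (5.88%, against 1.35% of all genes tested), and for 0 members with it lower (1.59% of all genes tested). Of all orders of 7 mice, 2.86% give this in each direction.

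These counts rested on single libraries. Without Eµ-PRMT5 mouse 4, 6 members (17.6%) had an unadjusted p under 0.05, where the share of all genes tested that were higher was 2.98% in place of 0.957%, with log2 fold changes of 2.01 for Ifi27l2a, 1.71 for Isg15, 1.54 for Cmpk2, 1.53 for Zbp1, 1.27 for Irf7 and 0.86 for Bst2. All were higher in Eµ-PRMT5/TCL1, and the smallest edgeR adjusted p among members was then 0.683. Of the members, 8 did not overlap in that case (23.5%, against 5.51% of all genes tested and 5% of all orders of 6 mice), namely Irf9, Zbp1, Isg15, Parp14, Cmpk2, Bst2, Ifi27l2a and Xaf1. Without Eµ-PRMT5/TCL1 mouse 3, 0 members had an unadjusted p under 0.05 by edgeR (1.01% of all genes tested were higher) and 4 did not overlap (11.8%, against 4.06% of all genes tested and 6.67% of orders).

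**Figure D5:**
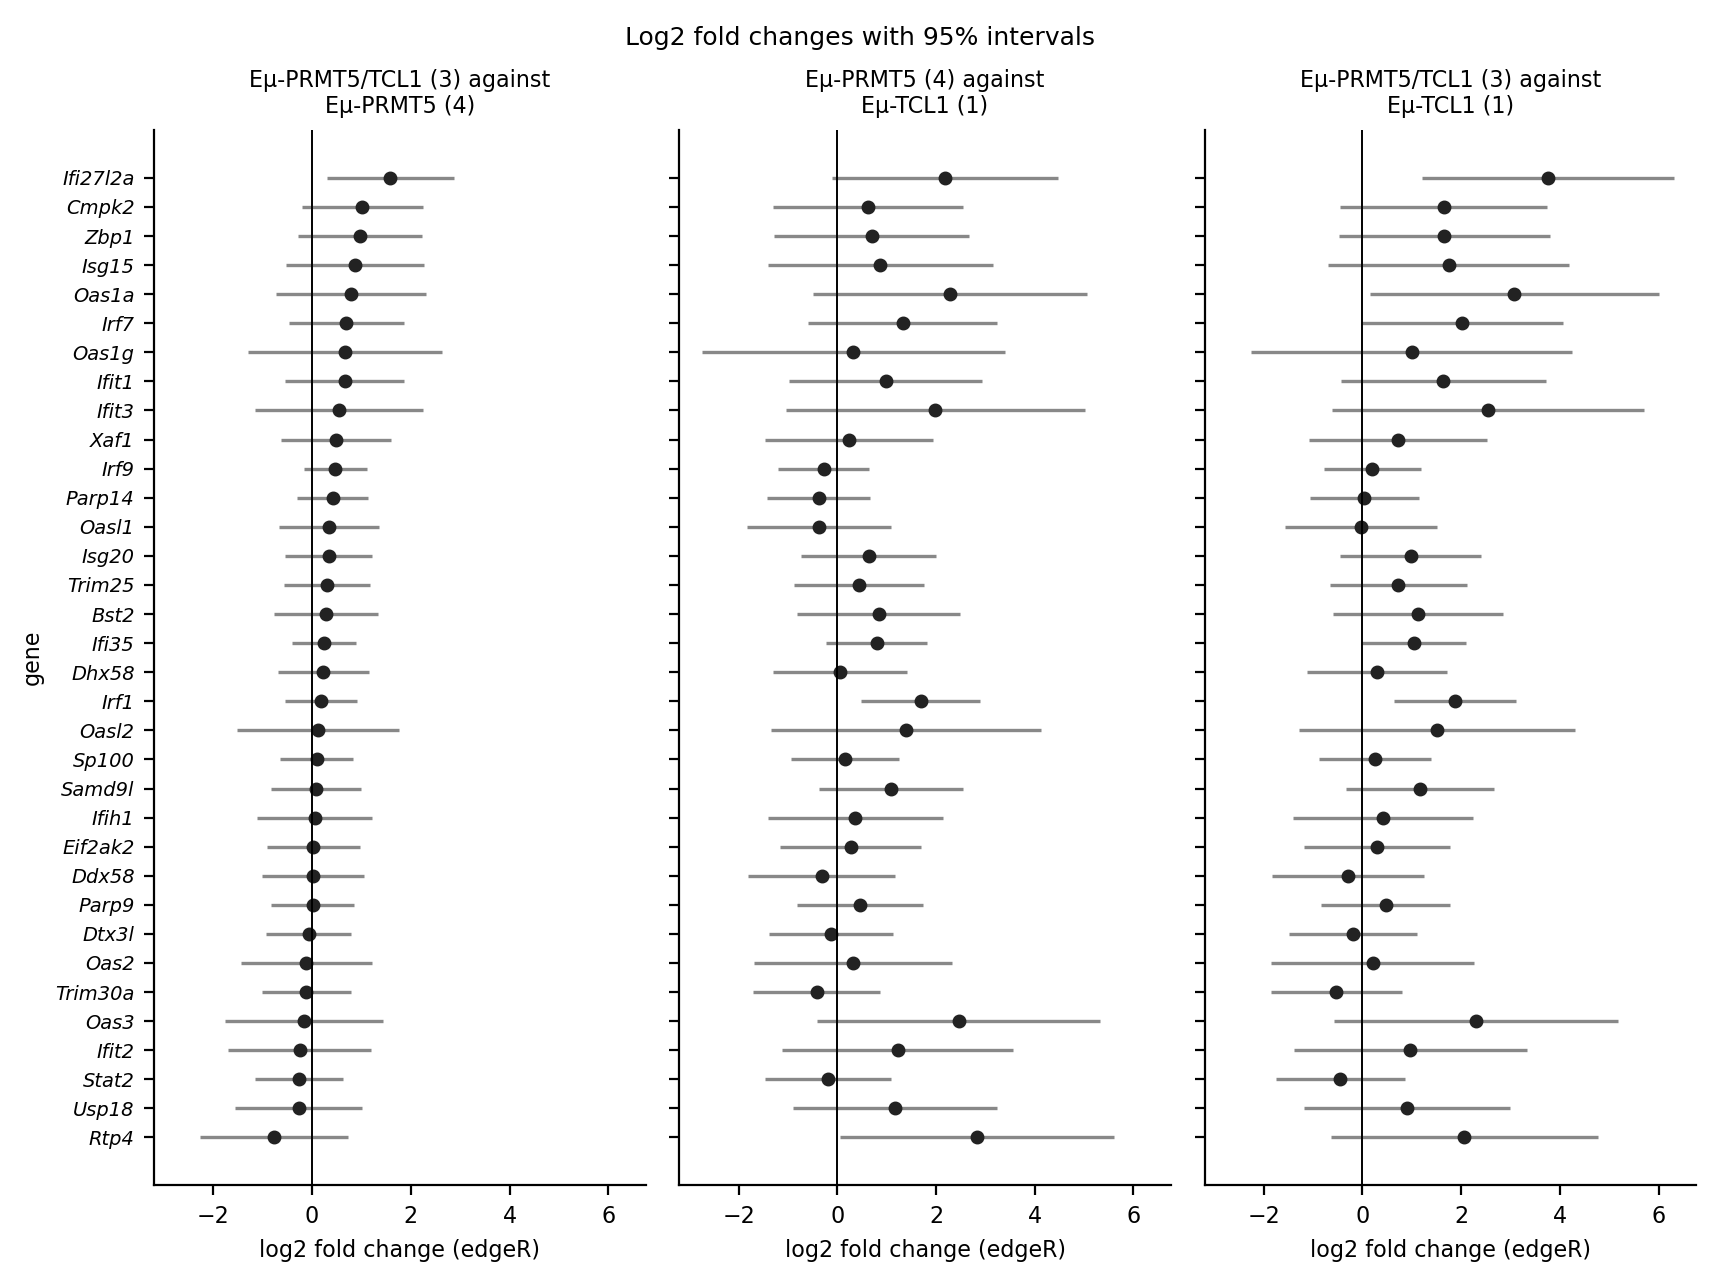
Log2 fold change of each of the 34 tested members in the 3 comparisons, with 95% intervals from the edgeR fit, ordered by the fold change of Eµ-PRMT5/TCL1 over Eµ-PRMT5. Most points lie above 0 (26, 27 and 29 of 34), and the intervals of all but 1, 2 and 3 members include 0.

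The second comparison set PRMT5 alone against the Eµ-TCL1 mouse. Of the 34 members, 27 were higher in Eµ-PRMT5 (79.4%, against 51.9% of all genes tested), with a median log2 fold change of 0.63 (all genes tested 0.04), or 0.18 without Eµ-PRMT5 mouse 4. Of the markers tested, 15 of 15 neutrophil, 6 of 6 erythroid and 5 of 6 macrophage genes were also higher. Their median log2 fold changes were 1.98, 2.55 and 0.54. For T cell, NK cell and plasma cell markers 5 of 6, 2 of 3 and 3 of 6 were higher. The part of these markers was not tested. edgeR called 0 members (0% of all genes tested), and DESeq2 called 0 members and 18 of all genes (4 higher, 14 lower). At an unadjusted p under 0.05, Irf1 and Rtp4 were higher and 0 members lower, where 1.96% of all genes tested were higher and 4.82% lower, and DESeq2 gave 5 members higher, with 4.9% of all genes tested. The count by edgeR was 6 without Eµ-PRMT5 mouse 1 (4.51% of all genes tested), 5 without mouse 2 (1.55%), and 1 without Eµ-PRMT5 mouse 3 (3.89%), Eµ-PRMT5 mouse 4 (2.08%) or any of the 3 Eµ-PRMT5/TCL1 mice (1.18% to 1.46%). All 4 Eµ-PRMT5 mice were above the Eµ-TCL1 mouse for 8 members (23.5%, against 17.9% of all genes tested), namely Irf1, Irf7, Oas1a, Oas3, Rtp4, Ifi35, Ifi27l2a and Samd9l. All 4 were below it for Irf9 alone (2.94%, against 24.4%).

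The third comparison set the double transgenic mice against the Eµ-TCL1 mouse, to see what PRMT5 adds to TCL1. It shares its libraries with the others. Of the 34 members, 29 were higher in Eµ-PRMT5/TCL1 (85.3%, against 46.6% of all genes tested), with a median log2 fold change of 0.97 (all genes tested -0.07). Of the markers tested, 13 of 15 neutrophil, 6 of 6 erythroid and 5 of 6 macrophage genes were also higher. Their median log2 fold changes were 2.44, 2.48 and 1.61. For T cell, NK cell and plasma cell markers 1 of 6, 1 of 3 and 1 of 6 were higher. The part of these markers in the members' values was not tested. edgeR called 0 members (0% of all genes tested). DESeq2 called Ifi27l2a higher, 1 of 16 genes that it called among all tested (9 higher, 7 lower). Irf1, Ifi27l2a and Oas1a were higher at an unadjusted p under 0.05 and 0 members were lower, where 1.75% of all genes tested were higher and 4.33% lower, and DESeq2 gave 8 members higher, with 3.61% of all genes tested. The count of 3 was 7 when Eµ-PRMT5 mouse 1 was left out (3.16% of all genes tested) and 5 when mouse 4 was (3.61%), although neither mouse is in the groups compared. All 3 Eµ-PRMT5/TCL1 mice were above the Eµ-TCL1 mouse for 23 members (67.6%, against 27.6% of all genes tested) and below it for Stat2 and Trim30a (5.88%, against 39%).

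The genes upstream of the members were read from separate lists. Of 11 interferon genes (Ifnb1, 9 genes of the α and ζ families and Ifng), 0 had a value in all 8 libraries, and none was tested. No value among them exceeded 2.95 CPM (18 counts of Ifna6 in Eµ-PRMT5/TCL1 mouse 1), and Ifnb1 was at 1 to 7 counts where it had a value.

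All 18 receptor and JAK-STAT genes were tested. Ifnar1 was at 178, 127, 74.1 and 125 CPM in Eµ-PRMT5, at 206, 112 and 51.9 CPM in Eµ-PRMT5/TCL1 and at 51.9 CPM in the Eµ-TCL1 mouse. Ifnar2 was at 40.6, 65.2, 35.6 and 59.7 CPM, then 121, 38.7 and 20.9 CPM, then 16.0 CPM. Both receptor chains were highest in Eµ-PRMT5/TCL1 mouse 1, and the replicated groups overlapped. Jak1 was at 862, 708, 549 and 314 CPM in Eµ-PRMT5, at 357, 503 and 461 CPM in Eµ-PRMT5/TCL1 and at 457 CPM in the Eµ-TCL1 mouse. Tyk2 was at 173, 185, 163 and 177 CPM, then 116, 159 and 218 CPM, then 151 CPM. Both ends of the Tyk2 range lay within Eµ-PRMT5/TCL1, and Jak1 was lowest in Eµ-PRMT5 mouse 4. Ptpn6, the phosphatase SHP-1, was at 485, 490, 1074 and 891 CPM in Eµ-PRMT5, at 886, 1137 and 1784 CPM in Eµ-PRMT5/TCL1 and at 267 CPM in the Eµ-TCL1 mouse. It was lowest in the Eµ-TCL1 mouse, the replicated groups overlapped, and it had a log2 fold change of 0.79 (SE 0.43) for Eµ-PRMT5/TCL1 over Eµ-PRMT5, or 0.46 without Eµ-PRMT5/TCL1 mouse 3.

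In Eµ-PRMT5/TCL1 over Eµ-PRMT5, 9 of the 18 were higher (50%, against 40.6% of all genes tested) and 9 lower. Of the 18, edgeR and DESeq2 called 0, and by either tool 0 had an unadjusted p under 0.05. In each comparison with the Eµ-TCL1 mouse both tools again called 0, and by edgeR 1 was higher at an unadjusted p under 0.05 (4 and 3 by DESeq2): the feedback inhibitor Socs3 in Eµ-PRMT5 (log2 fold change 1.82) and Ptpn6 in Eµ-PRMT5/TCL1 (2.25). These and the next counts stand beside 1.96% and 1.75% of all genes tested that were higher by edgeR in the 2 comparisons, and 4.9% and 3.61% by DESeq2. Of 17 adaptors, sensors and kinases that lead to interferon production, 14 were tested, and 10 had a positive log2 fold change of Eµ-PRMT5/TCL1 over Eµ-PRMT5, with 0 at an unadjusted p under 0.05 by either tool. Against the Eµ-TCL1 mouse 11 of the 14 were higher in Eµ-PRMT5 (78.6%, against 51.9% of all genes tested). In Eµ-PRMT5/TCL1 13 were (92.9%, against 46.6%). Each time both tools called 0 and gave 1 gene higher at an unadjusted p under 0.05. By edgeR it was Aim2, the DNA sensor of an inflammasome (log2 fold change 1.61 and 1.33). Ticam1 (TRIF) was at 22.9, 64.1, 48.8 and 21.0 CPM in Eµ-PRMT5, at 48.7, 85.6 and 63.9 CPM in Eµ-PRMT5/TCL1 and at 46.2 CPM in the Eµ-TCL1 mouse, and Traf3 at 50.1, 109, 62.2 and 51.9 CPM, then 85.9, 117 and 91.7 CPM, then 66.5 CPM. For both the replicated groups overlapped through Eµ-PRMT5 mouse 2, and for Ticam1 mouse 3 was level with the lowest Eµ-PRMT5/TCL1 mouse. The smallest p of Eµ-PRMT5/TCL1 over Eµ-PRMT5 belonged to Ticam1 with a log2 fold change of 0.75 (SE 0.44) and Traf3 with 0.52 (SE 0.36, or 0.84 without Eµ-PRMT5 mouse 2). Of a further 28 interferon-induced genes, 24 were tested. In Eµ-PRMT5/TCL1 over Eµ-PRMT5 18 were higher (75%, against 40.6% of all genes tested) and 6 lower. Of the 24, edgeR and DESeq2 called 0, and by either tool 0 had an unadjusted p under 0.05. Phf11d was at 10.4, 4.27, 10.7 and 26.1 CPM in Eµ-PRMT5, at 7.05, 6.72 and 6.92 CPM in Eµ-PRMT5/TCL1 and at 8.92 CPM in the Eµ-TCL1 mouse. It stood out only in Eµ-PRMT5 mouse 4, and had a log2 fold change of -0.90 (SE 0.61), or -0.29 without Eµ-PRMT5 mouse 4. Gbp2, a guanylate-binding protein, had 0.93 (SE 0.73), and leaving out Eµ-PRMT5 mouse 4 or mouse 2 gave 2.24 or 0.59, while leaving out Eµ-PRMT5/TCL1 mouse 1 gave 0.42. Gbp2 was at 78.7, 36.9, 122 and 545 CPM in Eµ-PRMT5, at 598, 310 and 215 CPM in Eµ-PRMT5/TCL1 and at 67.9 CPM in the Eµ-TCL1 mouse, so Eµ-PRMT5 mouse 4 again lay with the Eµ-PRMT5/TCL1 mice. Over the Eµ-TCL1 mouse 19 of the 24 were higher in Eµ-PRMT5 (79.2%) and 18 in Eµ-PRMT5/TCL1 (75%). The shares of all genes tested were 51.9% and 46.6%. The number of these 24 higher at an unadjusted p under 0.05 was 3 for Eµ-PRMT5 and 4 for Eµ-PRMT5/TCL1 over the Eµ-TCL1 mouse (12.5% and 16.7%, against 1.96% and 1.75% of all genes tested), with 0 lower and 0 called by edgeR. DESeq2 gave 4 and 6 at an unadjusted p under 0.05 (4.9% and 3.61% of all genes tested) and called 0.

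Several members lie side by side in the genome (GRCm38). Oas2, Oas3, Oas1g and Oas1a lie on the minus strand between chr5:120730333-120749853 and chr5:120896256-120907521, and Oasl1 and Oasl2 lie together elsewhere on chromosome 5. Ifit2, Ifit3 and Ifit1 follow each other on the plus strand of chromosome 19, Mx1 and Mx2 are neighbours on chromosome 16, and so are Parp9, Dtx3l and Parp14. Neighbours did not share 1 order of mice: Oas1a was highest in Eµ-PRMT5/TCL1 mouse 1, Oas3 in Eµ-PRMT5 mouse 4, and Ifit3 in Eµ-PRMT5 mouse 2. Dhx58, Eif2ak2, Ifi35, Oasl1 and Usp18 also overlap a gene on the opposite strand, and Rtp4, Sp100, Ifit1 and Trim30a share 10.5%, 3.12%, 5.19% and 4.98% of their 75-base words with other genes, so their counts carry the same uncertainty.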

How the data were processed

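Counts by gene symbol, as deposited by the authors, were used for all 8 libraries. Per the study's methods, RNA of pan-B isolates was preamplified with SMARTer v4, made into libraries with Nextera XT and processed with the CLEAR workflow. The labels describe TRIzol and a stranded TruSeq kit instead, so use of strand is not known. The submitters' processing notes list GRCm38, Subread, featureCounts and DESeq2 1.20.0. Cells without a value (36919, in 10830 symbols) were not read as 0. Symbols complete in all libraries (14072) were filtered with edgeR's filterByExpr, scaled by TMM and fitted in 1 quasi-likelihood model over 3 genotypes (edgeR 4.0.16, R 4.3.3), with Benjamini-Hochberg adjustment over all 13173 genes tested. Standard errors were derived from the F statistics. The biological coefficient of variation was 0.483. DESeq2 1.42.0 was an alternative. Both were tested on simulated data, where fewer planted genes were recovered against the single mouse than between replicated groups, and DESeq2 made more false calls than edgeR. Lengths and positions came from GENCODE.

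Members and lists were chosen with earlier results of these data known. Values in every mouse were given for transcription factors, members with the smallest p in each comparison, the largest mean, the largest or smallest spread, or a missing value; for Ifnar1, Ifnar2, Jak1, Tyk2 and genes with the smallest p of each pathway list; and for Prmt5. Some single genes of the lists are not reported here. Other genes named in the text were chosen after their values were seen.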

Additional observations from a re-analysis of the deposited data

Results flagged for a closer look

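Of 61 values or levels examined over the 4 Eµ-PRMT5 mice, 1 had a mouse far from the others by Dixon's ratio, where chance alone gives about 1 in 20 (3.05 of 61). The value is the level of Ifi35, which mouse 4 had at 6.14 log2 CPM while mice 1 to 3 had 6.33 to 6.35, a ratio of 0.916. The distance is large only beside the near equality of the other 3 mice. Ifi35 overlaps Gm11626 on the opposite strand.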

How the results depend on the processing

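Added after seeing the data were fits on mice 1 to 3 without a block and without Eµ-PRMT5 mice 1 and 4; the other alternatives were planned. Of 843 log2 fold changes of named genes under alternatives, 809 kept their sign and side of the threshold, 33 changed sign and 1 newly passed. Genes called were 0 by edgeR in each direction and comparison. DESeq2 called 3 higher and 1 lower for Eµ-PRMT5/TCL1 over Eµ-PRMT5, 4 higher and 14 lower for Eµ-PRMT5 over Eµ-TCL1, and 9 higher and 7 lower for Eµ-PRMT5/TCL1 over Eµ-TCL1, Ifi27l2a (3.85) among them. Without Eµ-PRMT5 mice 1 and 4 edgeR called 2 genes lower in the last comparison. The cause was not tested.

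Members higher at an unadjusted p under 0.05 numbered 1, 2 and 3 in the 3 comparisons, and each count is followed here by the share of all genes tested (first 0.957%, 1.96% and 1.75%). For Eµ-PRMT5/TCL1 over Eµ-PRMT5 the count was 6 with the replicate block on mice 1 to 3 (3.94%), 6 on the same mice with no block (2.98%), 4 without Eµ-PRMT5 mice 1 and 4 (2.88%), and 0 to 6 leaving out each mouse in turn (0.585% to 3.24%). For Eµ-PRMT5 over Eµ-TCL1 it was 5 by DESeq2 (4.9%), 1 under upper-quartile scaling (1.26%), library size only (0.972%), at least 10 counts in every library (2.42%) or only the 2 groups (0.985%), and 1 to 6 leaving out mice (1.18% to 4.51%). For Eµ-PRMT5/TCL1 over Eµ-TCL1 it was 8 by DESeq2 (3.61%), 6 with missing values as 0 (2.03%), 13 with only the 2 groups (8.68%), 11 without Eµ-PRMT5 mice 1 and 4 (6.04%), and 2 to 7 leaving out mice (1.09% to 3.61%). Members not overlapping with Eµ-PRMT5/TCL1 higher (2) were 9 without Eµ-PRMT5 mice 1 and 4 (9.12% of all genes tested, 10% of orders) and 2 to 8 leaving out each mouse (2.41% to 7.28%, 5% or 6.67% of orders). The differences in mean level ranged from 0.27 to 0.72, 0.22 to 0.67 and 0.89 to 1.00 leaving out mice. Against 0.46, 0.48 and 0.94, they were 0.53, 0.32 and 0.85 under upper-quartile scaling, 0.49, 0.23 and 0.72 with library size only and 0.60, 0.65 and 1.25 with missing values as 0. The cause was not tested.

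Same-numbered mice had correlations of -0.02, 0.15 and 0.16 in their deviations. Eµ-PRMT5 mice 2 and 3 thus correlated best with the Eµ-PRMT5/TCL1 mouse of the same number. Eµ-PRMT5 mouse 1 correlated best with Eµ-PRMT5/TCL1 mouse 2 (0.11). All these values were low, what the numbers mean is not known, and they were not taken to pair the mice. With the block, log2 fold changes of Eµ-PRMT5/TCL1 over Eµ-PRMT5 changed sign for Stat2 (0.14), Sp100 (-0.0738), Rtp4 (0.29) and Ifnar2 (-0.00939). The block changed no call of a gene.

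Other changes of sign in that comparison were Stat2 0.0711, Sp100 -0.0622 and Rtp4 0.11 on mice 1 to 3 with no block, Sp100 -0.0567, Rtp4 0.0337, Ifit3 -0.23 and Ifnar1 0.31 without Eµ-PRMT5 mice 1 and 4, and Ifnar1 0.0672 under upper-quartile scaling, 0.0348 with library size only and 0.0190 with at least 10 counts. For Eµ-PRMT5 over Eµ-TCL1, Sp100 was -0.0664 with library size only and Stat2 0.10 with missing values as 0. For Eµ-PRMT5/TCL1 over Eµ-TCL1, Parp14 was -0.0551 under upper-quartile scaling and -0.19 with library size only, where Irf9 was -0.0250. Leaving out each mouse, ranges that crossed 0 were -0.47 to 0.0770 for Stat2, -0.0872 to 0.23 for Sp100, -1.09 to 0.12 for Rtp4, -0.0516 to 1.29 for Oas1g, -0.62 to 0.34 for Ifnar1, -0.75 to 0.67 for Ifnar2 and -0.35 to 0.11 for Tyk2 in Eµ-PRMT5/TCL1 over Eµ-PRMT5; -0.53 to 0.14 for Stat2 and -0.29 to 0.80 for Oas1g in Eµ-PRMT5 over Eµ-TCL1; and -0.0478 to 0.16 for Parp14 in Eµ-PRMT5/TCL1 over Eµ-TCL1. The cause was not tested.

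Scaling moved the median log2 fold change of all genes from 0.04 to -0.21 (library size only) or -0.12 (upper quartile) for Eµ-PRMT5 over Eµ-TCL1, and from -0.07 to -0.30 or -0.17 for Eµ-PRMT5/TCL1 over Eµ-TCL1; the members' medians were then 0.37 or 0.47, and 0.75 or 0.89. The counts of all genes at an unadjusted p under 0.05 also moved: 258 higher for Eµ-PRMT5 over Eµ-TCL1 became 646 by DESeq2, 166 under upper-quartile scaling, 128 with library size only, 487 with missing values as 0, 129 with only the 2 groups and 540 without Eµ-PRMT5 mice 1 and 4, and 635 lower became 412, 266 and 386 under the last 3. For Eµ-PRMT5/TCL1 over Eµ-TCL1, 231 higher became 476 by DESeq2, 137 with library size only, 403 with missing values as 0, 1130 with only the 2 groups and 794 without Eµ-PRMT5 mice 1 and 4, and 571 lower became 313 with missing values as 0 and 1229 with only the 2 groups. For Eµ-PRMT5/TCL1 over Eµ-PRMT5, 126 higher and 160 lower became 495 and 331 with the block, 374 and 368 on those mice with no block, and 378 and 276 without Eµ-PRMT5 mice 1 and 4; 209 were higher with missing values as 0 and 248 lower by DESeq2. Leaving out each mouse gave 77 to 424 higher and 66 to 368 lower there, 155 to 594 and 401 to 1609 for Eµ-PRMT5 over Eµ-TCL1, and 143 to 475 and 254 to 959 for Eµ-PRMT5/TCL1 over Eµ-TCL1. The cause was not tested. With 1 Eµ-TCL1 library of 3356297 counts, the members with the largest SE against it were Oas1g (1.41 and 1.49) and Ifit3 (1.39 and 1.45).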

Other observations

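In the further interferon-induced list, Slfn1, a Schlafen family gene chosen after its values were seen, was at 22.5, 9.18, 23.3 and 39.0 CPM in Eµ-PRMT5 mice 1 to 4, at 29.2, 14.6 and 11.8 CPM in Eµ-PRMT5/TCL1 mice 1 to 3 and at 2.16 CPM (8 counts) in the Eµ-TCL1 mouse. The 7 mice carrying PRMT5 were all higher than that mouse. Over it, Slfn1 had a log2 fold change of 3.43 (SE 1.06) in Eµ-PRMT5 and of 3.09 (SE 1.05) in Eµ-PRMT5/TCL1, with edgeR adjusted p of 0.709 and 0.778. Its relative Slfn2 was at 128, 286, 249 and 482 CPM, then 504, 316.7 and 285 CPM, then 86.8 CPM, again lowest in the Eµ-TCL1 mouse. Ly6e was the most abundant gene of that list in every library, at 1849 CPM or more, and differed little between genotypes, with a log2 fold change of 0.29 (SE 0.41) for Eµ-PRMT5/TCL1 over Eµ-PRMT5.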
